A study of Mus musculus with 41 samples.

Results

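Liver tumours of CD8kMup mice were compared across all genes with livers of the same genotype from the group marked NC. Members were the 3 libraries whose columns are named for CD8kMup tumours (HCC, hepatocellular carcinoma) and the 3 named for CD8kMup NC livers, 6 of the 41 samples in the series. All mice were male and of the C57BL/6 strain, and their ages are not given in the labels. The tumours are titled as high-fat diet (HFD) samples with the source Liver-HCC, while the NC livers are called healthy and carry neither a diet nor an explanation of the letters NC. Polyadenylated RNA was measured by stranded RNA-seq. From what is known of the study rather than from its labels, the Mup part of the name stands for MUP-uPA, a transgene that drives urokinase in hepatocytes from a major urinary protein promoter, and CD8k for loss of CD8. Both groups carry the same name, so they share these alleles. MupHe and IgAkMup, the other genotypes with tumours, served for comparison with 4 tumours and 3 NC livers each. Livers of IgAkMup with NASH (non-alcoholic steatohepatitis) and of B6 on the high-fat diet were used as exchanged controls, 3 libraries each. MupHe NASH livers and IgAkCLM livers on the high-fat diet, also 3 each, entered a gauge of the column tag. B6 NC livers, 3 libraries, entered the shared fit.

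Hepatocellular carcinoma arises from hepatocytes, the cells that make plasma proteins, bile acids and urea and that clear drugs and hormones. These tasks are divided along the blood flow of the liver lobule, with Wnt signals from the central vein maintaining the pericentral set. Tumours often lose part of this programme and switch on fetal, stress and proliferation genes, and in fatty livers they grow among resident macrophages (Kupffer cells), recruited macrophages and scar tissue. CD8 T cells recognise peptides on MHC class I molecules and can kill tumour cells.

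Values are regularized log2 values (rlog), on which a difference of 1 is a doubling. Differences are given with standard errors, n = 3 against 3. The standard errors and p-values rest on a spread pooled over all 11 groups of the fit, not on these 6 libraries alone. A gene that varies in other groups can therefore miss the threshold although the CD8kMup libraries are close together. A gene passed the test where limma's p-value, adjusted over the 12337 kept genes, was under 0.05. Of these genes, 2072 (16.8%) rose in the tumours and 2093 (17%) fell, together 33.8%. These shares are the background for the list counts against NC below. The median difference over all kept genes was 0.01, with the lower and upper 5% of genes beyond -0.89 and 0.94. Tumour and NC values did not overlap in 3388 genes on the higher side (27.5%) and 3399 on the lower side (27.6%), and 4077 genes (33%) were both apart and past the threshold. A rise of more than 1 passed in 472 genes and a fall of more than 1 in 424. On the first principal component of all 35 libraries used, which held 47.9% of the variance, the tumours lay at 40.77, 26.86 and 23.05 and the NC livers at -28.37, -26.14 and -26.09. All 6 libraries stood with their label on that axis.

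Tumour status, diet and the tag in the column names (SS for the tumours, Tri for the NC livers) changed together, so their shares cannot be told apart within this comparison. The tag was gauged in 4 other groups of high-fat livers without tumours. B6 high-fat and IgAkMup NASH livers carried SS, while IgAkCLM high-fat and MupHe NASH livers carried Tri. Between these SS and Tri columns 1615 genes (13.1%) differed, 5.15% of genes higher and 7.94% lower in SS. Genotype differed between the sides too, so the gauge does not isolate the tag. Of the 2072 genes that rose in CD8kMup tumours, 324 (15.6%) were also higher in SS, and of the 2093 that fell, 685 (32.7%) were also lower. Most results below were therefore set beside the same tumours minus livers that share the SS tag and the high-fat diet. Against IgAkMup NASH livers 902 genes (7.31%) passed, 4.04% of genes higher and 3.27% lower, and against B6 high-fat livers 1650 (13.4%), 7.51% higher and 5.87% lower. Of the genes that rose against NC, 431 (20.8%) also rose against IgAkMup NASH, 636 (30.7%) against B6 and 350 (16.9%) against both. Of those that fell, 302 (14.4%), 419 (20%) and 197 (9.41%) did so. These exchanges also change the genotype, and they reuse the same tumours.

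**Figure D1:**
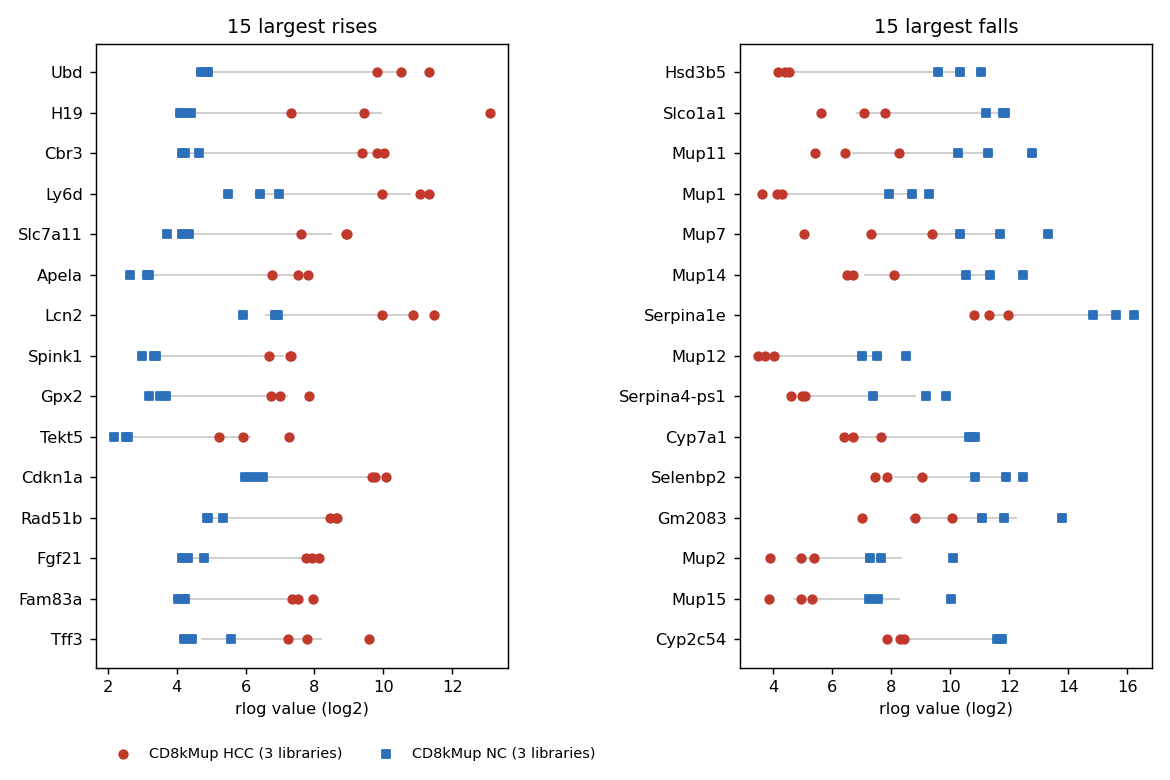
Values (rlog, log2) of the 15 genes with the largest rise and the 15 with the largest fall past the threshold, in each of the 3 CD8kMup tumours (red circles) and 3 CD8kMup NC livers (blue squares); the grey line joins the group means. The genes were chosen among those whose tumour and NC values do not overlap, so the gap between the groups was set by the choice.

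The genes behind the genotype name were examined first. Cd8a, which encodes the alpha chain of CD8, stood at 3.50, 3.78 and 4.16 in the tumours and at 3.34, 4.20 and 3.88 in the NC livers. The groups overlapped, and the difference was 0.01 ± 0.25 (adjusted p = 0.98). Cd8a lay between 3.66 and 5.02 in the other 8 tumours, so it did not set the CD8kMup libraries apart; whether the reads come from a deleted part of the gene is not given in the sources used here. Cd8b1, the beta chain, lay below the filter on low values and was not tested. It was 1.86, 1.76 and 1.85 in the tumours, below the 2.18 to 3.20 of the other 8 tumours. In the NC livers it was 1.79, 1.90 and 1.75, against 2.25, 1.79 and 2.05 in MupHe NC and 2.08, 1.97 and 2.09 in IgAkMup NC livers. B6 NC livers, at 1.77, 1.82 and 1.81, were as low as those of CD8kMup, so low Cd8b1 was not confined to this genotype. Plau, which encodes urokinase, was 7.18, 7.02 and 6.10 in the tumours and 4.36, 4.86 and 4.91 in the NC livers. Plau rose by 2.06 ± 0.54 (adjusted p = 0.0042), by 1.90 in MupHe and by 1.85 in IgAkMup tumours, and the call was lost against IgAkMup NASH (1.42, adjusted p = 0.11) and against B6 high-fat livers (1.53, adjusted p = 0.057). Partners of urokinase also rose: Plat, tissue plasminogen activator, by 1.51 ± 0.28, and Plaur, the urokinase receptor, by 0.82 ± 0.24. None of the 6 genes of the urokinase list passed against either exchanged control, and Plaur lost its call without CD8kMup HCC 3 (0.69), HCC 4 (0.71) or NC 2 (0.68).

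The largest rises brought genes from near silence to high levels. Ubd, a ubiquitin-like protein (FAT10; GRCm38.p6 chromosome 17, 37193892 to 37196101), was 11.32, 9.82 and 10.53 in the tumours and 4.92, 4.71 and 4.88 in the NC livers. The tumours lay far above every NC liver, by 5.72 ± 0.54 on average (adjusted p = 2.3e-08). Cbr3, a carbonyl reductase (chromosome 16, 93683219 to 93690991), was 10.03, 9.82 and 9.39 against 4.23, 4.64 and 4.15, a rise of 5.40 ± 0.39 (adjusted p = 1.9e-10). Apela, a secreted peptide of embryonic tissue that binds the apelin receptor (chromosome 8, 65028417 to 65037336), was 7.53, 6.77 and 7.81 against 3.21, 3.14 and 2.65. Its rise of 4.37 ± 0.27 had an adjusted p of 9.9e-12. These 3 genes kept a rise of at least 3.92 against both exchanged controls. H19, an imprinted fetal long noncoding RNA (chromosome 7, 142575530 to 142578146), was 13.09, 7.31 and 9.43 in the tumours and 4.09, 4.19 and 4.42 in the NC livers. All tumours were higher, but 1 of them carried most of the rise of 5.71 ± 1.52: without CD8kMup HCC 3 it was 4.13 (adjusted p = 0.058), and against IgAkMup NASH it was 4.62 (adjusted p = 0.06).

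The other 11 of the 15 largest rises lay between 3.46 and 4.50, with adjusted p-values from 1.3e-07 to 0.0077. They held Ly6d, a surface protein of early B cells and epithelia (4.50 ± 0.89), Lcn2, the iron-scavenging lipocalin of acute injury (4.18 ± 0.46), Spink1, a trypsin inhibitor (3.85 ± 0.80), and Tff3, a trefoil peptide of mucus (3.46 ± 0.98). They also held Tekt5 (3.70 ± 0.70), whose product belongs to the sperm flagellum, and Fam83a (3.46 ± 0.79). Cdkn1a, the cell cycle inhibitor p21, was 10.09, 9.76 and 9.66 in the tumours against 5.98, 6.24 and 6.52, and rose by 3.59 ± 0.38. Rad51b, a recombination repair gene, was 8.61, 8.46 and 8.65 against 4.92, 5.33 and 4.88, and rose by 3.53 ± 0.42. Both were tight within groups, yet both depended on the control. Cdkn1a was 1.56 above IgAkMup NASH (adjusted p = 0.013) and 0.35 above B6 high-fat livers (adjusted p = 0.59), and Rad51b 0.72 (adjusted p = 0.33) and 0.37 (adjusted p = 0.61). In IgAkMup NASH livers against IgAkMup NC, Cdkn1a was higher by 2.39 and Rad51b by 2.64. Tff3 lost its call without CD8kMup HCC 3 (2.77, adjusted p = 0.061), Ly6d against IgAkMup NASH (2.75, adjusted p = 0.056), and Fam83a there too (1.95, adjusted p = 0.13).

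Of the 16 kept genes on the list of fetal liver and liver tumour genes 8 rose, where 16.8% of all kept genes did, and none fell, with a median of 1.30. Besides H19, Ly6d, Spink1 and Tff3 these were Scd2, a desaturase that adult liver hardly uses (9.71, 9.86 and 10.86 against 7.37, 7.39 and 7.82, a rise of 2.62 ± 0.53), Golm1, a Golgi protein shed by liver tumours (1.46 ± 0.29), Cd44, a hyaluronan receptor (1.22 ± 0.25), and Igf2bp2, an RNA-binding protein (1.01 ± 0.38). The classic fetal marker Afp did not pass, at 5.26, 5.02 and 3.89 against 3.56, 3.74 and 3.44 (1.15 ± 0.75, adjusted p = 0.25). It differed by 2.23 in MupHe and 4.23 in IgAkMup tumours. Of this list 12 genes passed as higher in each of those genotypes. Igf2bp2 fell short of the threshold without any of 4 libraries (largest adjusted p = 0.21, without CD8kMup HCC 8), and of the list 4 genes passed against IgAkMup NASH and 7 against B6 high-fat livers, at medians of 1.15 and 1.43.

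Targets of NRF2, the transcription factor of the antioxidant response, rose in part. Of 19 kept genes, 10 rose and none fell, with a median of 1.12, and these 10 passed in each of the 6 fits that left out 1 of the libraries. Nqo1, a quinone reductase used as a readout of NRF2, was 9.85, 9.38 and 9.60 in the tumours and 6.49, 6.95 and 6.77 in the NC livers. Its tumour values lay well above the NC values, and it rose by 2.87 ± 0.20 (adjusted p = 1.4e-10). Slc7a11, the cystine transporter that feeds glutathione synthesis, was 7.61, 8.94 and 8.90 against 3.72, 4.17 and 4.36, a rise of 4.41 ± 0.62. Gpx2, a glutathione peroxidase, rose by 3.73 ± 0.52, Gsta1, a glutathione transferase, by 3.17 ± 0.42, and Abcc4, an exporter, by 2.97 ± 0.41. Cbr3, above, belongs to this list, and smaller rises passed for Gstm3 (1.98), Srxn1 (1.78), Gclc (1.24) and Gstm1 (1.12). Not every target moved: Hmox1, Gclm, Txnrd1 and 6 further genes did not pass. Against the exchanged controls 9 genes (IgAkMup NASH) and 8 genes (B6 high-fat) of the list rose, at medians of 1.23 and 0.97. RefSeq gives promoters for 16 of these genes, of which 4 (25%) held the antioxidant response element TGACNNNGC on either strand. The share was 11.5% of all 27025 genes with a promoter entry and 14.1% of the kept ones. Of the 4, Gclm, Txnrd1, Ugdh and Abcc4, only Abcc4 rose.

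The integrated stress response, in which the factor ATF4 raises genes for amino acid supply and growth arrest, showed rises in 10 of its 12 kept genes and no fall, with a median of 1.47. Fgf21, a fasting and stress hormone of liver, was 7.76, 8.14 and 7.94 in the tumours and 4.80, 4.16 and 4.32 in the NC livers, a rise of 3.52 ± 0.40 (adjusted p = 2.9e-07). The 3 tumours were nearly level for Fgf21, and CD8kMup HCC 4 was the highest library for most members of the list. Psat1, of serine synthesis, was 6.60, 7.85 and 6.56 against 4.43, 4.71 and 5.27 (2.20 ± 0.33). Nupr1, a stress-induced chromatin protein, was 8.79, 9.02 and 7.35 against 5.69, 6.17 and 6.98 (2.10 ± 0.53). Chac1, which degrades glutathione, was 5.75, 6.81 and 5.69 against 4.63, 4.66 and 4.63 (1.44 ± 0.36). Trib3 rose by 1.50 ± 0.40 and Gdf15, a stress cytokine, by 1.38 ± 0.35. Atf3 (1.40 ± 0.48) and Ddit3 (1.51 ± 0.45) passed with overlapping groups, since NC 3 stood above HCC 8 for both. Atf4 itself did not pass (0.43 ± 0.17, adjusted p = 0.053). Asns, asparagine synthetase, did not pass either and pointed the other way. It was 5.38, 7.57 and 5.22 in the tumours against 7.59, 6.59 and 6.40, at -0.81 the lowest difference of the list.

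The list was less uniform against other controls and without single libraries. It held 4 rises against IgAkMup NASH and 6 against B6 high-fat livers, with medians of 1.21 and 1.38. Fgf21 passed against both (2.17 and 1.47), while Chac1 did not (0.90 and -0.39, adjusted p = 0.13 and 0.52) and neither did Gdf15 (0.73 and -0.08). Without CD8kMup HCC 4, Atf3 was 0.97 (adjusted p = 0.17), Ddit3 1.27 (adjusted p = 0.062), Phgdh 0.92 (adjusted p = 0.17) and Sesn2 0.55 (adjusted p = 0.056). Atf3 also lost its call without HCC 3 or NC 1 or NC 2, and Ddit3 without HCC 3 or NC 1. In MupHe and IgAkMup tumours 5 and 6 of these 12 genes rose, and no gene of the list passed the test of a difference from both genotypes together. The related list of endoplasmic reticulum chaperones moved little, with 2 rises, 1 fall and a median of 0.19.

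Promoters of the stress response genes are shown because 4 of the 12 genes with a RefSeq promoter (33.3%) held the C/EBP-ATF response element TTGCATCA on either strand. The share was 0.918% of all 27025 genes with a promoter entry, 0.71% of the kept ones and 1.03% of the 1560 that rose. Each line gives the 250 bases before the annotated start of the gene (GRCm38.p6, 5′ to 3′ on the strand of the gene), with the element in capitals. A match is a description of the letters and not a measured binding site.
Fgf21, chr7:45615491-45615740, minus strand: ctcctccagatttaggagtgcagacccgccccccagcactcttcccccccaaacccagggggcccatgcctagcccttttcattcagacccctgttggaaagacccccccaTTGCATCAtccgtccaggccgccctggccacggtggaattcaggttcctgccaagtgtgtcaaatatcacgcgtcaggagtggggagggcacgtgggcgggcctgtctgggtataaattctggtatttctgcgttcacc
Chac1, chr2:119350992-119351241, plus strand: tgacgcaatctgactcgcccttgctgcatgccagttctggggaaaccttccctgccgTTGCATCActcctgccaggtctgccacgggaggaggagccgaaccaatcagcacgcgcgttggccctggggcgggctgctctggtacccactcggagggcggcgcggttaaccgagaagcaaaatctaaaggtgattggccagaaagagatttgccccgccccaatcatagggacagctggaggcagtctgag
Nupr1, chr7:126625471-126625720, minus strand: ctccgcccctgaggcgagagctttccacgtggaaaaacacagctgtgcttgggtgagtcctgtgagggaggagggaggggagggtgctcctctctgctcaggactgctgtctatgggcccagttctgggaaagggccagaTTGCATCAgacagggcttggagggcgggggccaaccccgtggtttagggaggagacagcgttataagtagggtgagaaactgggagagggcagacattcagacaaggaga
Atf3, chr1:191183334-191183583, minus strand: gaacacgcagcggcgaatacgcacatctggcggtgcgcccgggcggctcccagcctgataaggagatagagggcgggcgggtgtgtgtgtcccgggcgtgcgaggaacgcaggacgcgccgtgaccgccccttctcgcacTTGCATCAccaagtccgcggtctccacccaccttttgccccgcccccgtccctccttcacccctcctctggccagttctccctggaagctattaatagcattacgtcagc

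The element began 139 bases before the start in Fgf21, 193 in Chac1, and 110 in both Nupr1 and Atf3. Fgf21, Chac1 and Nupr1 rose with groups that did not overlap, and Atf3 with groups that did. Promoters of the other 8 genes, Psat1 among them, did not hold these letters within the window.

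Cell division genes rose to a limited extent. Of 27 kept genes 12 rose and none fell, with a median of 0.57. Cdk1, the kinase that drives mitosis, was 6.63, 6.23 and 6.23 in the tumours and 4.73, 5.26 and 5.10 in the NC livers, a rise of 1.33 ± 0.24 (adjusted p = 0.00014). Birc5, or survivin, rose by 1.01 ± 0.26 and Plk1, a mitotic kinase, by 0.89 ± 0.23. The proliferation marker Mki67 did not pass, and its values overlapped (6.68, 6.38 and 7.05 against 5.75, 6.90 and 6.45; 0.34 ± 0.31, adjusted p = 0.42). Top2a, a topoisomerase of dividing cells, was 0.76 ± 0.30 higher with an adjusted p of 0.05 and did not pass. In MupHe tumours 25 of these genes rose and in IgAkMup tumours 21, where Mki67 differed by 1.71 and 1.42. The difference between CD8kMup and the mean of both had a median of -0.59 over the list, and none of its genes passed that test. Ccna2, Cdc20, Mcm5 and Aurka lost their calls without 1 or more of the libraries, and the list held 3 rises against IgAkMup NASH and 8 against B6 high-fat livers. Among p53 targets and cell cycle inhibitors, 4 of 14 rose: Cdkn1a, Phlda3 (6.95, 6.29 and 6.84 against 4.64, 4.28 and 3.99; 2.39 ± 0.32), Sesn2 and Bax (0.64 ± 0.16). Phlda3 passed against both exchanged controls (1.72 and 1.48), while Bax (0.29 and 0.26) and Sesn2 (0.27 and 0.00) passed against neither, and the list medians of 0.54 against NC became 0.13 and 0.09.

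Genes of sugar and fat handling rose in part. Of 11 glycolytic genes that normal liver uses little, 8 rose, with a median of 0.80. Pkm, the pyruvate kinase of tumours and muscle, was 8.61, 8.78 and 9.58 in the tumours and 7.25, 7.45 and 7.54 in the NC livers, a rise of 1.58 ± 0.31. Pfkp and Hk2 rose by 1.18 ± 0.43 and 1.12 ± 0.42, although Hk2 lost its call without any 1 of the 6 libraries (adjusted p up to 0.11) and Pfkp without any of 5 (up to 0.16). Against IgAkMup NASH 2 genes of this list rose, and against B6 high-fat livers 1 rose and 1 fell. Pkm passed against both (1.21 and 0.99). Among 15 lipid droplet genes 7 rose, with a median of 0.83. Cidec, which fuses droplets, was 9.33, 9.66 and 8.43 against 6.84, 5.93 and 6.09 (2.85 ± 0.83), Mogat1, of triglyceride synthesis, rose by 1.98 ± 0.56, and Cd36, a fatty acid transporter, by 1.30 ± 0.22. Plin2 coats the droplets; it was 12.05, 12.73 and 12.82 against 11.59, 11.37 and 11.25. Against livers on the same diet none of the 15 rose, 3 fell against B6, and the medians were 0.03 and -0.22. Plin2, a rise of 1.13 against NC, lost its call without HCC 4, HCC 8, NC 2 or NC 3 (adjusted p up to 0.096). Against the exchanged controls Cidec was 0.85 and 0.31, Cd36 0.04 and -0.11, and Plin2 -0.20 and -0.55. Cidea rose by 1.66 ± 0.64 with CD8kMup HCC 4 highest, and without it was 1.00 (adjusted p = 0.29).

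**Figure D2:**
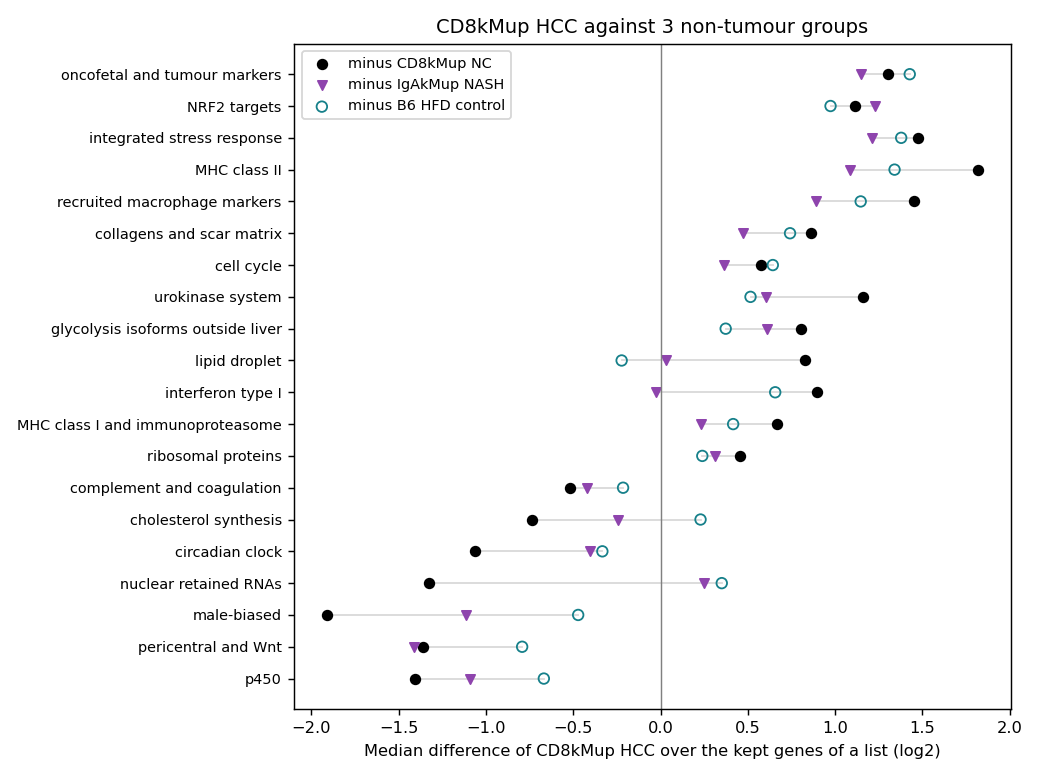
Median difference (log2) of CD8kMup HCC over the kept genes of 20 gene lists, against CD8kMup NC (black circles), IgAkMup NASH (violet triangles) and B6 HFD control livers (open circles). NRF2 targets and the stress response keep medians of at least 0.97 against every control, while lipid droplet genes, nuclear RNAs and type I interferon genes lie near 0 or change side against at least 1 of the high-fat livers.

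The falls were led by male-biased and secreted products of hepatocytes. Hsd3b5, a steroid dehydrogenase of male liver (chromosome 3, 98618636 to 98645534), was 4.15, 4.39 and 4.53 in the tumours and 11.02, 10.33 and 9.57 in the NC livers. The tumours had nearly lost it, and it fell by 5.95 on the log2 scale (SE 0.70, adjusted p = 6.4e-07). Slco1a1, an uptake carrier for steroid conjugates (chromosome 6, 141907281 to 141946962), was 5.60, 7.80 and 7.08 against 11.79, 11.86 and 11.22, a difference of -4.79 ± 0.47. Of the 15 largest falls, 7 were major urinary protein genes, pheromone carriers that lie in a cluster on chromosome 4. Mup1 was 3.63, 4.28 and 4.14 in the tumours and 9.27, 8.69 and 7.93 in the NC livers (-4.62 ± 0.41, adjusted p = 1.2e-08). Mup11, Mup7, Mup14, Mup12, Mup2 and Mup15 fell by 4.72, 4.53, 4.33, 3.92, 3.59 and 3.57. Members of this cluster are nearly identical in sequence, as are the Serpina1 copies, so how reads were split among them is uncertain, and the Mup promoter also drives the transgene of these mice. The male-biased list held 7 falls among 12 kept genes and no rise, with a median of -1.91.

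The size of these falls depended on the control. Hsd3b5 was -3.30 against IgAkMup NASH (adjusted p = 0.0041) and -1.46 against B6 high-fat livers (adjusted p = 0.17). Slco1a1 passed against both (-3.52 and -2.33), as did Mup11 (-3.61 and -2.08) and Mup1 (-1.40 and -1.34). Mup7 and Mup14 passed against IgAkMup NASH only (-3.01 and -2.23), at -0.12 and -0.93 against B6. Serpina1e, an antitrypsin copy, fell by 4.20 against NC but was -0.46 and 0.11 against the exchanged controls, and Selenbp2, a selenium-binding protein, fell by 3.61 but was -0.22 and 0.62. Mup3 fell by 2.48 with 1 tumour far below the others (10.09, 13.70 and 14.13 against 15.36, 15.18 and 14.83), and by 1.21 without CD8kMup HCC 3. Within the male-biased list 3 genes fell and 1 rose against IgAkMup NASH and 3 fell against B6, with medians of -1.11 and -0.47.

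Cytochrome P450 enzymes of drug and steroid metabolism fell: 11 of 16, with none higher and a median of -1.40. Cyp2c54, the last of the 15 largest falls (chromosome 19, 40037939 to 40073845), was 7.84, 8.43 and 8.30 in the tumours and 11.67, 11.60 and 11.75 in the NC livers (-3.48 ± 0.55). Cyp2c50 was 9.26, 10.36 and 10.97 against 13.22, 13.16 and 13.30 (-3.03 ± 0.53), and Cyp2c29 9.84, 11.09 and 12.37 against 13.85, 13.77 and 13.98 (-2.77 ± 0.64). Values of CD8kMup HCC 3 were the lowest of all 6 libraries for these 3 genes, while the NC livers were nearly level. Copies within the Cyp2c family are similar, so their single values are less certain than the fall they share. Cyp2a5, a coumarin hydroxylase, did not pass (0.07 ± 0.96). The medians of the other genotypes were lower, at -2.38 in MupHe and -3.51 in IgAkMup, and 5 of the 16 genes passed the test of a difference between CD8kMup and IgAkMup, among them Cyp2e1 and Cyp3a11. Against IgAkMup NASH 5 genes fell and against B6 high-fat livers 1. Cyp2c54 was -2.30 and -0.06 there. Of the 11 falls, 7 held in all 6 fits without 1 library; Cyp2e1 (-1.76), Cyp2d9, Cyp2u1 and Cyp3a25 did not, and all 4 were lost without HCC 3, where they were -1.35, -0.91, -0.87 and -1.13.

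Pericentral genes, which depend on Wnt signals, fell in nearly every case: 14 of 16 fell, tumour and NC values were apart in all 16, and the median was -1.36. Slc1a2, a glutamate transporter, was 7.56, 8.85 and 9.58 in the tumours and 11.40, 11.53 and 11.44 in the NC livers (-2.80 ± 0.62). Oat, ornithine aminotransferase, was 10.14, 11.20 and 11.44 against 13.16, 13.37 and 13.86 (-2.54 ± 0.38). Tbx3, a transcription factor induced by Wnt, was 5.62, 6.48 and 6.08 against 8.96, 8.26 and 7.85 (-2.29 ± 0.40). Direct Wnt targets fell with the enzymes, Axin2 by 1.32 ± 0.28, Lgr5 by 1.34 ± 0.31, Rnf43 by 1.65 ± 0.30, Nkd1 by 1.19 ± 0.20 and Sp5 by 0.81 ± 0.17. Glul, glutamine synthetase of the innermost ring, was 11.28, 12.30 and 13.04 against 13.58, 13.67 and 13.54 (-1.39 ± 0.49). Glul lost its call without any of 5 libraries, with the largest adjusted p without HCC 3 (-0.93, adjusted p = 0.21). Against the exchanged controls 8 and 3 genes fell; Oat (-2.27 and -1.69), Lhpp (-1.78 and -1.34) and Lgr5 (-1.33 and -1.05) passed against both, while Axin2 (-0.82 and -0.21), Slc1a2 (-2.50 and -1.41) and Tbx3 (-1.67 and -0.82) missed at least 1.

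The periportal list changed less, with 2 falls and 1 rise among 12 genes and a median of -0.45. The share of falls stood near the 17% of all kept genes, and that of rises below their 16.8%. Cps1, the entry enzyme of the urea cycle, was 13.73, 13.30 and 13.50 in the tumours and 14.76, 15.06 and 15.18 in the NC livers (-1.49 ± 0.35). Ass1, a later enzyme of the cycle, fell by 1.22 ± 0.31, and Slc25a13, which exports aspartate from mitochondria, by 0.71 ± 0.19. These were the 3 falls among 8 urea cycle genes. Slc25a13 passed against both exchanged controls (-0.83 and -0.78), Ass1 against B6 only, and Cps1 against neither (-0.74 and -0.84). Hsd17b13, a lipid droplet enzyme of hepatocytes, rose by 0.94 ± 0.19. Of 19 genes of amino acid breakdown 7 fell, led by Prodh, proline dehydrogenase (9.31, 8.97 and 9.05 against 10.30, 10.70 and 10.91; -1.52 ± 0.29), and Hpd of tyrosine breakdown (-1.38 ± 0.48). Of the 7, Prodh and Kynu, a tryptophan pathway enzyme, held in every fit without 1 library, while Hpd was lost without any of 4 (adjusted p up to 0.087). Prodh was -0.76 and -0.19 against the exchanged controls and passed against neither. Ass1, Prodh and Arg1 differed between genotypes, with less of a fall in CD8kMup than in IgAkMup by 1.58 ± 0.43, 1.89 ± 0.40 and 1.40 ± 0.36 (adjusted p = 0.044, 0.017 and 0.038). In fits without 1 library, these calls were lost in 9 for Ass1, 1 for Prodh and 7 for Arg1.

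Bile acid synthesis and transport fell in 8 of 16 genes, with a median of -0.76. Cyp7a1, the rate-limiting enzyme of bile acid synthesis (chromosome 4, 6265612 to 6275632), was 6.39, 6.72 and 7.66 in the tumours and 10.75, 10.82 and 10.62 in the NC livers (-3.81 ± 0.79, adjusted p = 0.00051). The NC livers were level while the tumours spread over more than 1 log2 unit, all far lower. Cyp7b1, of the alternative pathway, fell by 2.30 ± 0.45 and Slc10a1, the bile acid uptake carrier, by 2.11 ± 0.46. Cyp8b1, which sets bile acid hydrophobicity, overlapped (8.49, 10.16 and 11.01 against 10.88, 10.10 and 9.54; -0.28 ± 0.91). Slc10a1 passed against both exchanged controls (-1.78 and -1.43), as did Cyp27a1 (-0.93 and -0.54), whereas Cyp7b1 (-0.86 and -1.26) passed against neither and Cyp7a1 was -2.47 (adjusted p = 0.053) and -0.65 (adjusted p = 0.63).

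Secreted plasma proteins fell in part. In the complement and coagulation list 10 of 19 genes fell and none rose, with a median of -0.52. Both C8 chains of the membrane attack complex, the coagulation factor F11 and the lectin pathway protease Masp1 were among the falls: C8b was 9.79, 9.50 and 9.43 in the tumours and 12.30, 11.86 and 11.64 in the NC livers (-2.36 ± 0.37), C8a fell by 1.65 ± 0.30, Masp1 by 1.27 ± 0.22 and F11 by 1.74 ± 0.63. F11 lost its call without any of 5 libraries, with the largest adjusted p without HCC 3 (-1.54, adjusted p = 0.115). C3, the central component, did not differ (0.00 ± 0.22). Alb, albumin, did not pass, at 18.70, 18.93 and 19.05 against 19.53, 19.50 and 19.61 (-0.65 ± 0.47, adjusted p = 0.30), and of 18 secreted proteins of hepatocytes only Apob fell (-1.22 ± 0.27). Among acute phase genes Hp, haptoglobin, rose by 1.40 ± 0.24 beside Lcn2, Saa4 fell by 1.25 ± 0.40, and Saa1 did not pass (0.15 ± 0.56). Saa4 lost its call without HCC 3 (-1.09) or NC 3 (-1.15), and Hp was 0.60 and 0.32 against the exchanged controls. Against the exchanged controls 2 and 1 of the 19 complement genes fell, where 3.27% and 5.87% of all kept genes did, and C8b was -0.87 and -0.21. Apob passed against both (-0.85 and -0.95).

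Hepatocyte transcription factors fell in 8 of 16 genes, with a median of -0.50. Onecut1 (HNF6) was 4.57, 4.64 and 4.72 in the tumours and 7.36, 7.90 and 6.40 in the NC livers (-2.57 ± 0.51), and Prox1 fell by 1.38 ± 0.29. Hnf4a, the central factor of hepatocyte identity, fell by only 0.33 ± 0.13 (12.23, 12.02 and 12.12 against 12.45, 12.41 and 12.51), and the call was lost without any of 5 libraries (adjusted p up to 0.14). Onecut1 was -0.56 and -0.96 against the exchanged controls and did not pass, nor did Prox1. Cholesterol synthesis genes fell in 5 of 20, where 17% of all kept genes fell. Of the 5, 2 held in all 6 fits without 1 library, among these Stard4 (-1.11 ± 0.22). Tumour values lay below every NC value in 16 of the 20, where 27.6% of all kept genes did so. The median of -0.74 became -0.24 and 0.23 against the exchanged controls. Mlxipl, the sugar-sensing factor ChREBP, fell by 1.42 ± 0.26 and was 0.29 and 0.24 there. Vnn1, a target of the fatty acid sensor PPAR alpha, rose by 2.08 ± 0.36 and was -0.11 and -0.12 there.

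Genes of the circadian clock mostly fell. Of 15 kept genes 10 fell and 2 rose, with a median of -1.06. Per3, a repressor of the clock, was 4.54, 4.97 and 4.64 in the tumours and 7.09, 7.86 and 7.44 in the NC livers (-2.75 ± 0.55), Per2 fell by 1.77 ± 0.39, and Dbp, an output factor, by 2.51 ± 0.88. The activators differed among themselves. Arntl (BMAL1) was 7.29, 7.24 and 7.18 against 5.89, 5.64 and 5.83 (1.46 ± 0.48), and its partner Npas2 rose by 1.55 ± 0.56. Its other partner, Clock, fell by 0.57 ± 0.20, and lost the call without HCC 3 (-0.36, adjusted p = 0.23), NC 1 or NC 2. Such genes follow the time of day, which the labels do not give, and no gene of the list passed against either exchanged control (Per3 -1.04 and -0.38, Arntl 0.74 and 0.31; medians -0.40 and -0.33). Of the 12 calls 5 held in all 6 fits without 1 library; Dbp was lost without HCC 8 (-2.03, adjusted p = 0.12), NC 2 or NC 3, Arntl without HCC 3 (1.43, adjusted p = 0.056) or NC 2, and Npas2 without any of 5, with the largest adjusted p without HCC 8 (1.25, adjusted p = 0.13).

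The promoter of Ciart, a clock repressor that was 4.18, 4.47 and 3.74 in the tumours and 5.17, 6.36 and 6.53 in the NC livers (-1.89 ± 0.56), is shown for its 3 copies of the E-box CACGTG, the letters bound by the clock activators. In all, 5 of 14 clock genes with a promoter entry (35.7%) held an E-box, against 6.86% of all 27025 such genes and 10% of the kept ones. The D-box TTATGTAA was held by 1 (7.14%), against 0.977% of all.
Ciart, chr3:95882229-95882478, minus strand: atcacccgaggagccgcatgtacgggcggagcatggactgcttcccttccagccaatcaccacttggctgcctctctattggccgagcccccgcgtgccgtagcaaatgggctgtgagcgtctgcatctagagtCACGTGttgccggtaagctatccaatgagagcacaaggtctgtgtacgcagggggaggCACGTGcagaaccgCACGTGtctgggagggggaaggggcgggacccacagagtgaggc

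The 3 copies began 116, 58 and 44 bases before the start. Ciart lost its call without NC 3 (-1.63, adjusted p = 0.054) and was -0.40 and -0.09 against the exchanged controls.

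RNAs kept in the nucleus fell, 4 of 6 with none higher and a median of -1.33. Meg3, an imprinted noncoding RNA, was 2.93, 3.17 and 3.25 in the tumours and 5.66, 6.66 and 6.23 in the NC livers (-3.07 ± 0.68). Malat1, the abundant speckle RNA, was 9.25, 9.71 and 9.66 against 10.44, 11.04 and 10.92 (-1.26 ± 0.35). Snhg11 and Mir22hg fell by 2.30 and 1.39. All 4 falls held in every fit without 1 library. This list moved with the column tag: 5 of its 6 genes were lower in SS than in Tri columns of high-fat livers, at a median of -1.22. Against the SS-tagged controls none fell, the medians were 0.25 and 0.35, and Malat1 was 0.55 and 0.66 and Meg3 -0.26 and 0.02. Whether nuclear RNA was recovered differently was not tested.

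**Figure D3:**
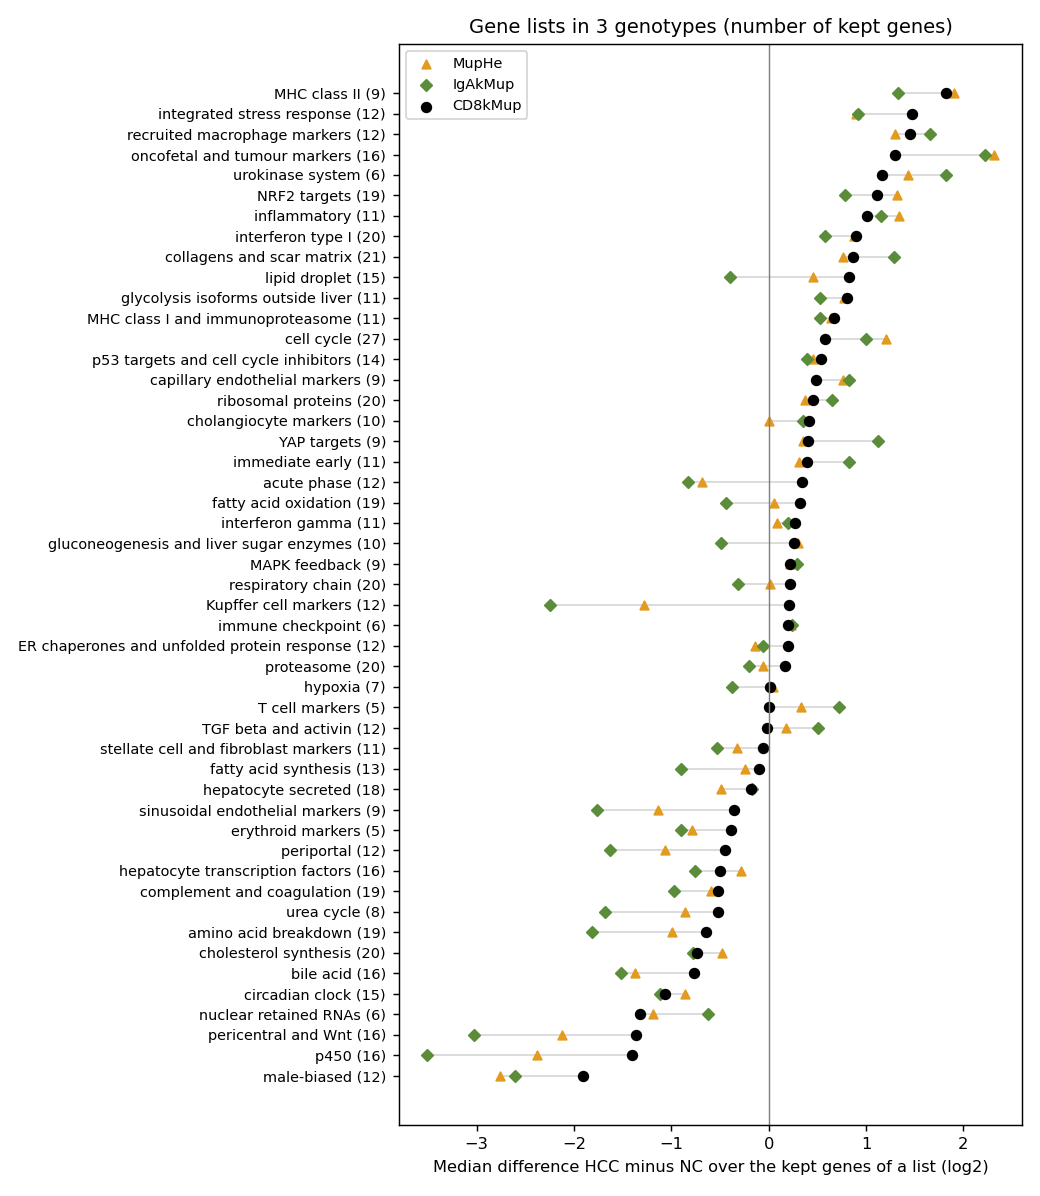
Median difference HCC minus NC (log2) over the kept genes of 49 gene lists with at least 5 kept genes, in CD8kMup (black circles), MupHe (orange triangles) and IgAkMup (green diamonds); the number of kept genes stands in parentheses. CD8kMup medians of the P450 (-1.40) and pericentral lists (-1.36) are closer to 0 than those of the other genotypes, and that of Kupffer cell markers (0.21) stands on the other side of 0, a side that it leaves against the exchanged controls (-0.09 and -0.10).

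Across the whole transcriptome, the CD8kMup change was shared in large part with the other tumour genotypes, in which 40.1% (MupHe) and 45% (IgAkMup) of genes passed. Of the 2072 genes that rose, 1519 (73.3%) also rose in MupHe, which is 59.8% of the 2540 that rose there (20.6% of genes tested), and 1433 (69.2%) in IgAkMup, 50.7% of the 2828 there (22.9%). Of the 2093 that fell, 1461 (69.8%) also fell in MupHe, 60.7% of 2407 there (19.5%), and 1340 (64%) in IgAkMup, 49.2% of 2723 there (22.1%). In neither genotype did 329 of the rises (15.9%) and 405 of the falls (19.4%) pass. These comparisons share no library with the CD8kMup one, but diet and tag differ in the same way in each.

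Interferon-stimulated genes rose: 12 of 20 type I genes, none lower, with a median of 0.89. Ifi44 was 6.86, 6.59 and 7.52 in the tumours and 6.03, 4.99 and 5.08 in the NC livers (1.62 ± 0.32), Oas1a, a sensor of double-stranded RNA, rose by 1.41 ± 0.29 and Isg15, a ubiquitin-like modifier, was 7.74, 7.29 and 7.78 against 6.69, 6.10 and 6.08 (1.32 ± 0.25). Ifit1, Mx1 and 6 further genes did not pass. The result turned on the control: 0 of 20 rose against IgAkMup NASH livers (median -0.02, Isg15 -0.11) and 9 against B6 high-fat livers (median 0.66, Isg15 0.91). Of the 12 calls, 9 held in all 6 fits without 1 library. In the interferon gamma list 3 of 11 rose and 1 fell, at a median of 0.27; none passed against either exchanged control, and the medians there were -0.20 and 0.24.
The promoter of Isg15 is shown for its row of overlapping copies of the interferon response element, here GAAA repeated after 2 free bases. Of 15 type I genes with a promoter entry, 8 (53.3%) held the element on either strand, against 3.46% of all 27025 such genes.
Isg15, chr4:156200819-156201068, minus strand: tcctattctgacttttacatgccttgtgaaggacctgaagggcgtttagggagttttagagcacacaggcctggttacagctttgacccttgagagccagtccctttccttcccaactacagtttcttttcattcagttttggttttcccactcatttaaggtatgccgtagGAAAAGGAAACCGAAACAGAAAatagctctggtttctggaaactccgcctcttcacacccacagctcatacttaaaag

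The 3 copies began 78, 72 and 66 bases before the start and share bases with each other. For the interferon genes, these letters describe the promoter and not the source of the difference between tumours and NC livers.

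Antigen presentation rose on both arms. For MHC class II, which dendritic cells, macrophages and B cells use to present to CD4 T cells, 8 of 9 genes rose with a median of 1.82. H2-Eb1 was 11.03, 10.04 and 9.76 in the tumours and 8.33, 7.68 and 8.29 in the NC livers (2.17 ± 0.34, adjusted p = 2.4e-05). Cd74, the invariant chain, was 13.12, 11.52 and 11.49 against 9.99, 9.79 and 10.14 (2.07 ± 0.31), and H2-Aa and H2-Ab1 rose by 2.02 and 1.98. CD8kMup HCC 3 was the highest library for all of these, and the groups did not overlap. Of the list 5 genes rose against IgAkMup NASH and 8 against B6 high-fat livers, with H2-Eb1 at 1.32 and 1.61, H2-Aa at 1.23 and 1.48 and H2-Ab1 at 1.31 and 1.54. For MHC class I and the immunoproteasome, 8 of 11 rose with a median of 0.67. Psmb8, an immunoproteasome subunit, was 9.93, 8.83 and 9.57 against 8.05, 7.43 and 7.64 (1.74 ± 0.23), Psmb9 rose by 1.36 ± 0.18, and the peptide transporters Tap2 and Tap1 by 1.15 and 1.08. The heavy chain H2-K1 did not pass (0.33 ± 0.15, adjusted p = 0.085), and no gene of this list passed against IgAkMup NASH, while 5 rose against B6.

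Macrophage markers split into a recruited set that rose and a resident set that was mixed. In bulk tissue, fewer cells of a type and less RNA per cell cannot be told apart. Of 12 recruited macrophage markers 10 rose and all 12 had tumour values above every NC value, with a median of 1.45. Spp1, osteopontin, was 12.35, 12.05 and 11.06 in the tumours and 9.51, 9.88 and 9.85 in the NC livers (2.07 ± 0.61), Cd9 was 9.76, 9.33 and 9.25 against 7.41, 7.44 and 7.40 (2.02 ± 0.39), and Lgals3, galectin-3, rose by 1.69 ± 0.24. Trem2, a lipid receptor of scar-associated macrophages, rose by 1.51 ± 0.29, and the monocyte receptors Cx3cr1 and Ccr2 by 1.43 and 1.30. The summed level of the list was 11.79 to 12.84 in the tumours and 10.36 to 10.59 in the NC livers. Against the exchanged controls 5 and 8 genes rose, with Cd9 at 1.47 and 1.67 and Trem2 at 0.96 and 1.10. Spp1 is also a bile duct gene and lost its call without HCC 3 (1.81, adjusted p = 0.056). The summed level of the cholangiocyte list, which holds Spp1, was 11.38 to 12.54 in the tumours and 10.29 to 10.50 in the NC livers, and no other of its 10 kept markers passed, at a median of 0.41. Krt19 was 4.60, 4.51 and 4.60 against 4.92, 4.85 and 5.13. Against IgAkMup NASH none of the list passed (median 0.23), but against B6 high-fat livers 4 rose (median 0.98), namely Spp1 (2.23), Cd24a (1.37), Cldn7 (1.33) and Sox9 (1.31). The part of bile duct cells in the Spp1 value was not tested. Inflammatory genes rose in 6 of 11, among them Il1rn by 2.27 ± 0.48, Ccl2, the monocyte attractant, by 1.87 ± 0.37, Vcam1 by 1.64 ± 0.30 and Icam1 by 1.30 ± 0.18; of this list 2 genes rose against each exchanged control, Icam1 against both (0.85 and 0.90).

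Of 12 Kupffer cell markers 4 fell and 1 rose, with a median of 0.21 that became -0.09 and -0.10 against the exchanged controls. Marco, a scavenger receptor, was 4.54, 5.29 and 4.15 in the tumours and 7.39, 7.44 and 6.81 in the NC livers (-2.55 ± 0.42), and Cd163, a haemoglobin receptor, was 4.07, 4.46 and 4.53 against 5.70, 6.86 and 7.26 (-2.26 ± 0.29). Timd4, which marks long-resident Kupffer cells, was 4.37, 4.54 and 4.48 against 5.50, 5.68 and 5.62 (-1.14 ± 0.16, adjusted p = 9.5e-06). These 3 fell against both exchanged controls too, Marco by 2.25 and 2.78, Cd163 by 2.02 and 2.47, and Timd4 by 1.49 and 1.55. The last fall, of C6, a complement component, was -1.45 and was lost without any of 5 libraries. The defining markers Clec4f and Vsig4 did not pass. Clec4f was 10.26, 9.99 and 10.20 in the tumours, above its NC values of 9.36, 9.41 and 9.58 (0.70 ± 0.66, adjusted p = 0.44). Its standard error is pooled over all groups, and the MupHe and IgAkMup tumours ranged from 5.08 to 9.92. Vsig4 was 8.75, 8.43 and 8.40 against 8.13, 8.26 and 8.36. The values against the exchanged controls were -0.02 and -0.17 for Clec4f and 0.20 and -0.11 for Vsig4. Adgre1 (F4/80), shared by all macrophages, rose by 1.04 ± 0.29 but was 0.42 and -0.06 against the exchanged controls. The summed level of the list was 12.66 to 13.04 in the tumours and 12.69 to 12.82 in the NC livers, so the groups overlapped.

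Few lymphocyte markers passed. Of 11 T cell markers 5 passed the filter and none passed the test. The lists of NK cells, B cells, plasma cells and neutrophils had only 2, 3, 2 and 3 genes past the filter, of 9, 7, 9 and 8 listed. They gave 1 call in all, Cd79b, a B cell receptor chain (0.72 ± 0.16). It was 0.46 (adjusted p = 0.067) and 0.76 (adjusted p = 0.0019) against the exchanged controls. The summed T cell level was 6.90 to 7.08 in the tumours and 6.86 to 7.12 in the NC livers. Plasma cell and neutrophil sums overlapped too. Tumours lay above the NC livers in the NK sum (5.65 to 6.00 against 5.50 to 5.58) and, narrowly, in the B cell sum (6.03 to 6.26 against 5.79 to 6.00). The NK sum overlapped that of IgAkMup NASH (5.71 to 5.83) and B6 high-fat livers (5.47 to 5.79), while the B cell sum was lower there (5.78 to 5.88 and 5.52 to 5.70). Among immune checkpoint genes Cd86 rose by 0.68 ± 0.18 but was 0.27 and 0.31 against the exchanged controls, and Cd274 (PD-L1) did not pass (0.21 ± 0.24, and -0.11 and 0.32 there); Pdcd1, Ctla4 and 5 others lay below the filter. Markers of adipocytes, muscle and mesothelium had 1 kept gene each, none of which passed, and no pancreatic marker passed the filter, with Amy2a5 at 0.

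Scar matrix rose without a rise of stellate cell markers. Of 21 collagen and matrix genes 12 rose and 1 fell, with a median of 0.86. Col1a2 was 8.05, 8.13 and 8.20 in the tumours and 6.69, 6.74 and 6.87 in the NC livers (1.36 ± 0.39), and Col3a1 was 9.41, 9.60 and 9.67 against 7.92, 8.27 and 8.35 (1.38 ± 0.43). Tumour values for these fibrillar collagens were close together and above every NC value, yet they did not pass against IgAkMup NASH (0.66 and 0.73) or B6 high-fat livers (0.69 and 0.60). Basement membrane Col4a1 rose by 1.26 ± 0.22 and Sparc by 1.32 ± 0.21, and both passed there as well (Col4a1 1.14 and 1.03, Sparc 1.01 and 0.74). Col3a1 lost its call without NC 1 (1.24, adjusted p = 0.06), and 6 of the 13 calls of the list held in all 6 fits without 1 library. None of 11 stellate cell and fibroblast markers passed (median -0.06, summed level 11.74 to 11.79 against 11.61 to 11.95); Lrat was 6.59, 6.89 and 6.78 against 7.30, 7.57 and 6.75.

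Endothelial markers were mixed. Of 9 capillary markers 5 rose and 1 fell, with a median of 0.48, and 2 rose against each exchanged control. Esm1, a gene of endothelial tip cells, was 6.89, 6.44 and 6.74 in the tumours and 4.50, 3.75 and 3.48 in the NC livers (2.78 ± 0.38, adjusted p = 4.7e-06), and Cd34 was 6.72, 6.37 and 6.76 against 5.31, 5.34 and 5.59 (1.21 ± 0.36). Both passed against the exchanged controls (Esm1 2.65 and 1.56, Cd34 1.22 and 1.63). Kdr, the VEGF receptor, fell by 0.72 ± 0.16 and Vegfa itself by 1.16 ± 0.13, but Vegfa was 0.16 and 0.19 and Kdr -0.24 and -0.20 against the exchanged controls. Pecam1, present in all endothelium, did not pass (0.27 ± 0.16). Of 9 sinusoidal markers 2 fell (Dnase1l3 by 0.77 and Fcgr2b by 0.48) and Lyve1 rose by 1.42 ± 0.53; each of these lost its call without at least 4 of the 6 libraries, with adjusted p-values up to 0.13, and no sinusoidal marker passed against either exchanged control. The difference between the capillary and sinusoidal lists was not tested.

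Housekeeping sets moved by smaller amounts. Ribosomal protein genes rose in 11 of 20 and fell in 1, with a median of 0.45; Rpl19 was 7.93, 8.03 and 7.74 in the tumours against 6.56, 6.45 and 6.55 (1.38 ± 0.15). Proteasome genes rose in 7 of 20 and fell in 1, at a median of 0.16. Respiratory chain genes rose in 4 of 20, a share near the 16.8% of all kept genes, at a median of 0.22. Both lists moved with the column tag, as 12 of 20 genes in each were higher in SS than in Tri columns of high-fat livers, at medians of 0.28 and 0.34. No proteasome gene rose against the exchanged controls, 1 and 2 fell, and the medians were -0.07 and -0.09. Against the exchanged controls Rpl19 was 0.37 and 0.25 and did not pass, the respiratory list held 5 falls against B6, and the ribosomal medians were 0.31 and 0.24. Ndrg1, a hypoxia and stress gene, rose by 2.02 ± 0.34 and passed against both (1.47 and 1.72), while 5 of the 7 hypoxia genes kept, Bnip3 and Adm among them, did not pass.

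The last question was where the CD8kMup tumours changed differently from tumours of the other genotypes. Here the change from NC was itself compared, and diet and tag differ in the same way in each genotype. Over all 12337 kept genes, the CD8kMup change had a slope of 0.71 on the mean change of the other genotypes (r = 0.84). The median size of the change was 0.31 in CD8kMup, 0.32 in MupHe and 0.345 in IgAkMup. On the first principal component the other tumours lay at 36.63 to 64.95, against 23.05 to 40.77 for CD8kMup. Whether single genes differ beyond this scale was not tested. Against MupHe, 6 genes (0.0486%) differed, and against IgAkMup 290 (2.35%). Against the mean of both, 27 genes (0.219%) differed, 14 (0.113%) with a higher and 13 (0.105%) with a lower change in CD8kMup. These counts moved widely with single libraries: against the mean of both, 1 gene was left without CD8kMup HCC 4 and 394 were called without MupHe HCC 4. With only the groups of the contrast fitted, 1 of the 27 calls was left.

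Some major urinary protein genes fell less in CD8kMup tumours: Mup6, Mup14 and Mup17 passed against the mean of both genotypes, while Mup16 (2.54, adjusted p = 0.077), Mup1, Mup2, Mup7, Mup11, Mup12 and Mup15 did not. Mup6 (chromosome 4, 60003481 to 60007274) was 5.10, 6.00 and 6.29 in the tumours and 9.03, 7.99 and 7.85 in the NC livers, a fall of 2.49, against falls of 5.34 in MupHe and 4.57 in IgAkMup. The tumours of the other genotypes lay at 3.93 to 4.90, below every CD8kMup tumour, and the difference of the changes was 2.47 ± 0.42 (adjusted p = 0.011). Mup17, whose fall of 2.75 was lost without HCC 3 (-1.78) or NC 1 (-1.75), differed by 4.50 (adjusted p = 0.046) and Mup14 by 3.15 (adjusted p = 0.031), with the same caution on near-identical copies. Of the 20 fits without 1 library, the calls were lost in 4 for Mup6, 7 for Mup14 and 10 for Mup17, with adjusted p up to 0.083 (without CD8kMup HCC 4), 0.13 and 0.20 (both without CD8kMup NC 2). NC levels differed between genotypes as well, since Mup6 was 9.73 to 9.85 in MupHe NC livers. Rgn, regucalcin, a hepatocyte calcium-binding protein, was 11.59, 12.27 and 12.48 in CD8kMup tumours against 13.38 to 13.63 in NC, whereas other tumours ranged from 7.73 to 11.45 (difference 2.73 ± 0.59, adjusted p = 0.046). Its fall of 1.38 in CD8kMup was lost without any of 5 libraries, most so without HCC 3 (-1.12, adjusted p = 0.14), and its difference between genotypes lost its call in 12 of the 20 fits (largest adjusted p = 0.155, without CD8kMup NC 2).

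Some Kupffer cell genes were higher in CD8kMup tumours. Timd4 was 4.37 to 4.54 in these tumours and 3.52 to 4.05 in the other 8, while CD8kMup NC livers at 5.50 to 5.68 were below the other Mup NC livers at 5.79 to 6.23. Its change was higher by 1.21 ± 0.20 than the mean of both genotypes (adjusted p = 0.0078), by 1.27 than in MupHe and by 1.14 than in IgAkMup. The call against the mean of both was lost in 1 of the 20 fits without 1 library, that without CD8kMup HCC 4 (1.17, adjusted p = 0.064). Folr2, a folate receptor of resident macrophages, was 7.11, 6.91 and 6.97 in CD8kMup tumours, 4.31 to 6.50 in MupHe and 4.04 to 5.89 in IgAkMup tumours, with NC values of 6.46 to 7.23 throughout (2.05 ± 0.43, adjusted p = 0.046). That call was lost in 11 of the 20 fits without 1 library, where the difference stayed between 1.88 and 2.25 and the largest adjusted p was 0.155, without CD8kMup NC 2, and with only the groups of the contrast fitted (adjusted p = 0.27). Clec4f (2.67, adjusted p = 0.13) and Vsig4 (2.18, adjusted p = 0.14) did not pass against the mean of both but did against IgAkMup alone (3.33 ± 0.91 and 2.84 ± 0.75, adjusted p = 0.045 and 0.04). Each of these calls against IgAkMup was lost in 11 of the fits without 1 library. MupHe HCC 2 held Clec4f at 9.92, just below the CD8kMup tumours, and Vsig4 at 8.90, above them, so the tumours of MupHe were not uniform. Marco and Cd163 fell in all 3 genotypes and did not pass (0.69 and 0.90). The list median was 0.21 in CD8kMup, -1.28 in MupHe and -2.25 in IgAkMup. MupHe HCC 3, IgAkMup HCC 5 and IgAkMup HCC 9 were lowest for Clec4f (6.01, 6.73 and 5.08) and Vsig4 (5.35, 5.69 and 4.37). The other tumours of these genotypes lay at 8.15 to 9.92 for Clec4f and 6.71 to 8.90 for Vsig4. Timd4 showed no such gap, at 3.52, 4.05 and 3.62 in the same tumours.

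**Figure D4:**
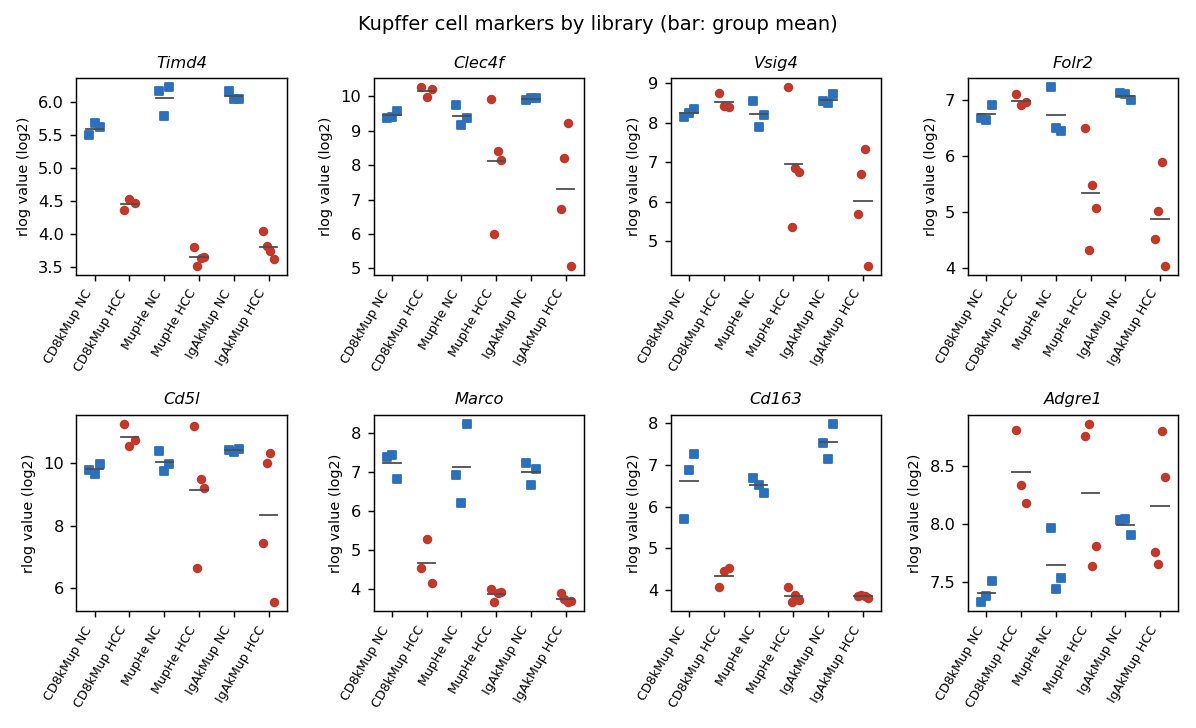
Values (rlog, log2) of 8 Kupffer cell markers in each library of the NC livers (blue squares) and tumours (red circles) of 3 genotypes; the bar is the group mean. Clec4f, Vsig4 and Cd5l lie above every CD8kMup NC value in the 3 CD8kMup tumours, and Marco and Cd163 are lower in all 11 tumours than in any NC liver.

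Other genes with a higher change in CD8kMup were Il18, an inflammasome cytokine (6.67, 6.64 and 6.66 in tumours, 6.84, 6.44 and 6.86 in NC; other tumours 5.17 to 6.16; 1.17 ± 0.23), Wnt2, an endothelial Wnt ligand of the pericentral zone (4.39, 4.56 and 5.02 in tumours, 4.80, 4.99 and 4.63 in NC; other tumours 3.48 to 4.33; 1.18), Gas1 (1.43), Fam180a (1.14 ± 0.18, adjusted p = 0.0078), Oaf (0.91) and Stk39 (0.89). Serpina3c differed by 2.36 through IgAkMup alone, where it was 9.08 to 9.85 in NC livers against 2.84 to 3.76 in CD8kMup NC. Genes with a lower change were mostly near their NC level in CD8kMup tumours. Lamc1, a laminin chain (chromosome 1, 153218922 to 153332786), was 7.46, 7.27 and 7.31 in CD8kMup tumours against 7.18, 7.58 and 7.59 in NC, and 7.60 to 9.43 in other tumours (-1.28 ± 0.25, adjusted p = 0.023). Notch3, a Notch receptor of vascular smooth muscle and pericytes, was 4.14, 4.12 and 4.48 against 4.48, 4.33 and 4.60, and 4.10 to 6.19 in other tumours (-1.43 ± 0.30). Nol4l (-1.44), Ptpre, a phosphatase (-1.32), Amot, a scaffold that binds YAP (-0.96), and Glg1 (-0.87) followed. For Notch3, Lamc1 and Nol4l, MupHe HCC 4 stood apart from the other 3 MupHe tumours at a level near the CD8kMup tumours (4.10, 7.60 and 4.28). Of the genes in this paragraph, Fam180a passed in all 20 fits without 1 library, while the others were lost in 3 (Ptpre) to 13 (Serpina3c and Stk39) of them, with adjusted p-values up to 0.20 and no change of sign.

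**Figure D5:**
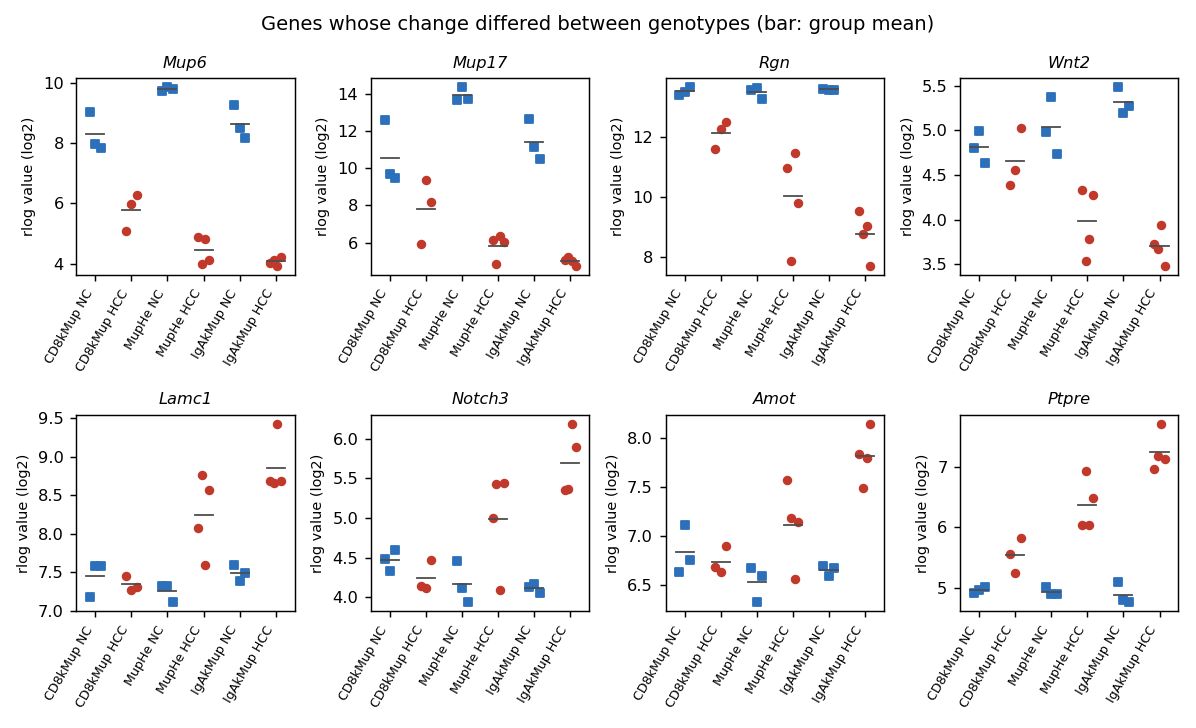
Values (rlog, log2) of 8 genes whose change from NC to HCC differed between CD8kMup and the mean of MupHe and IgAkMup, in each library (blue squares NC, red circles HCC; the bar is the group mean). Mup6, Rgn and Wnt2 are lower in all 8 other tumours than in any CD8kMup tumour, Lamc1 and Ptpre are higher in all 8, and Notch3 and Amot in 7 of 8.

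In the IgAkMup comparison the larger set of 290 genes, 174 (1.41%) with a higher and 116 (0.94%) with a lower change in CD8kMup, held many enzymes. Cyp2e1 fell by 1.76 in CD8kMup and by 5.39 in IgAkMup (difference 3.63 ± 0.87, adjusted p = 0.027), Cyp3a11 by 2.37 and 5.75 (3.39 ± 0.92, adjusted p = 0.045), and Pck1, of glucose production, was -0.50 and -3.17 (2.68 ± 0.58, adjusted p = 0.017). Among genes with a lower change were Col4a1 (1.26 against 2.45), Col4a2 (0.69 against 2.12), Fn1, fibronectin (-0.72 against 0.79), Apln (1.36 against 3.87) and Psat1 (2.20 against 3.98). None of these passed against MupHe, where Cyp2e1 differed by 2.15 (adjusted p = 0.47). In fits without 1 library, the call against IgAkMup was lost in 10 for Fn1, 9 each for Col4a1 and Cyp3a11, and 8 for Apln. It was lost in 7 for Psat1, 6 for Cyp2e1, 3 for Pck1 and 1 for Col4a2.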

How the data were processed

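The authors deposited 1 table of regularized log2 values (rlog) for 24511 genes and 41 samples, in which library size is already corrected for and low values are pulled toward the mean of their gene. The table holds no counts, so depth is unknown. Per the submitters' processing notes, reads were aligned to mm10 with STAR, with Cuffdiff named for the 29 high-fat samples and HOMER and DESeq2 for the 12 NC samples; no source used here gives their versions or the annotation. Columns were matched to samples by name. Of the 41 columns, 6 were not used, because their names fit both CD8kMup NASH and CD8kCLM high-fat controls.

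Genes with a mean of 3 or more over the 35 columns used were tested (12337 genes) with limma 3.58.1 in R 4.3.3, fitted on 11 group means with a mean-variance trend and 24 residual degrees of freedom, and Benjamini-Hochberg adjustment at 0.05. All groups entered 1 fit. Since nothing says that samples came from separate mice, p-values speak only to the spread between samples. The script was tested on simulated data. Positions, and promoters of 250 bases before each start, come from RefSeq for GRCm38.p6. Shares of promoter elements count genes, and a gene with several promoters held an element where any of them did. Named genes were, by rule, the 15 largest rises and falls with groups apart and a stable sign, the 6 largest genotype differences in each direction, and from each gene list the first 2 members and up to 3 largest changes in each direction; further genes were named after their values were seen, and a few genes that enter the counts are not reported here. Members and gene lists were chosen with earlier results of these data known. Alternatives changed the filter, scaling, weights, groups in the fit, libraries and control group.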

Additional observations from a re-analysis of the deposited data

Results flagged for a closer look

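The change from NC livers to tumours differed between CD8kMup and the mean of MupHe and IgAkMup in 27 genes by limma's test of the difference itself. Of the 14 that were higher in CD8kMup, values were 4.50 for Mup17, 4.18 for Gm2083, 3.15 for Mup14, 2.73 for Rgn, 2.47 for Mup6, 2.36 for Serpina3c, 2.05 for Folr2, 1.43 for Gas1, 1.21 for Timd4, 1.18 for Wnt2, 1.17 for Il18, 1.14 for Fam180a, 0.91 for Oaf and 0.89 for Stk39. Values among the 13 that were lower included -1.44 for Nol4l, -1.43 for Notch3, -1.32 for Ptpre, -1.28 for Lamc1, -0.96 for Amot, -0.87 each for Glg1, Dchs1 and Rictor, -0.81 for Rell1, -0.76 for Ankrd11, and -0.69 each for Rbm15 and Brd1.

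Against MupHe alone, the 6 genes with a difference were Gm2083 (4.70), Mup16 (3.79), Mup14 (3.71), Mup6 (2.85), Timd4 (1.27) and Fam180a (1.20).

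Against IgAkMup alone, macrophage genes differed by 3.33 (Clec4f), 2.84 (Vsig4), 2.46 (Folr2) and 1.14 (Timd4), and Il18 by 1.26. Hepatocyte genes differed by 3.63 (Cyp2e1), 3.41 (Rgn), 3.39 (Cyp3a11), 2.83 (Cyp2c50), 2.68 (Pck1), 2.26 (Oat), 2.09 (Cyp3a25), 2.08 (Mup6), 1.96 (Lhpp), 1.89 (Prodh), 1.58 (Ass1), 1.40 (Arg1) and 1.05 (Cyp27a1). Serpina3c differed by 4.31, Gas1 by 1.71, Wnt2 by 1.46, Fam180a by 1.09 and Oaf by 0.84. Lower changes in CD8kMup were -2.52 for Apln, -1.81 for Notch3, -1.78 each for Psat1 and Ptpre, -1.51 for Fn1, -1.47 for Lamc1, -1.46 for Nol4l, -1.44 for Col4a2, -1.25 for Amot, -1.19 for Col4a1 and -0.88 for Glg1.

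Single libraries were searched only in the MupHe and IgAkMup tumour groups, and only for the genes named above that differed from the mean of both genotypes. In 4 cases 1 library stood far from the other 3 of its group by Dixon's criterion, which chance meets in about 1 of 20 groups. They were Lamc1 in IgAkMup HCC 8 (9.43), Serpina3c in MupHe HCC 2 (2.82), and Stk39 in MupHe HCC 4 (4.31) and IgAkMup HCC 9 (4.39).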

How the results depend on the processing

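No paired analysis was possible because the tumour columns match only a group and carry no replicate number of the labels. The 4165 genes called between CD8kMup tumours and NC livers became 6280 with array weights and 5161 with only the groups of the contrast fitted. They became 902 with IgAkMup NASH and 1650 with B6 high-fat livers as control, and 2932 to 3855 without 1 library. The 6 genes against MupHe became 15 with array weights, 0 with only the groups of the contrast fitted, 19 without MupHe HCC 3, IgAkMup HCC 5 and IgAkMup HCC 9 (left out after seeing the data, since they stood apart), and 0 to 96 without 1 library. The 290 against IgAkMup became 188 with no filter, 1807 with array weights, 911 without those 3 tumours and 62 to 617 without 1 library. The 27 against the mean of both became 13 with no filter, 50 with quantile normalization, 909 with array weights, 1 with only the groups of the contrast, 222 without the 3 tumours and 1 to 394 without 1 library. The cause of these shifts was not tested. Of the 290, 60% were higher in CD8kMup, against 70.6% with median centring and 48.4% with quantile normalization; of the 27, 51.9% against 66.7% with median centring.

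Named genes that passed against NC or under the alternative changed sign only under the exchanged controls; several that passed in neither, Clec4f and Cd274 among them, also changed sign. Against IgAkMup NASH these were Malat1 (0.55), Snhg11 (0.56), Mlxipl (0.29), Vegfa (0.16), Isg15 (-0.11), Plin2 (-0.20) and Vnn1 (-0.11). Against B6 high-fat livers they were Malat1 (0.66), Snhg11 (0.77), Meg3 (0.020), Mlxipl (0.24), Vegfa (0.19), Selenbp2 (0.62), Serpina1e (0.11), Amot (0.70), Adgre1 (-0.064), Cd36 (-0.11), Chac1 (-0.39), Cidea (-0.43), Gdf15 (-0.083), Mogat1 (-0.10), Plin2 (-0.55) and Vnn1 (-0.12). Depth is unknown, and rlog values understate the differences of weakly expressed genes.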
